A study of Mus musculus with 3 samples.

Results

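Interferon-stimulated genes were read in sorted dendritic cells (DCs) of the mouse spleen. These genes are switched on when interferon binds its receptor on the cell surface: the kinases JAK1 and TYK2 then activate STAT2, which with IRF9 binds interferon-stimulated response elements in promoters. Interferon gamma acts through its own receptor on another element, the gamma-activated site. Among the products are sensors of viral nucleic acid, enzymes that stop viral translation or degrade RNA, and GTPases that attack the vacuoles of intracellular pathogens, and DCs keep part of this set on without infection.

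The genes were taken from a list of 45 mouse symbols, and a gene was measured where a probe set of the array names it alone. Of the 45, 39 genes had such a probe set (41 probe sets), out of 19938 genes measured this way. The genes Isg15, Ifi204, Gbp2, Igtp and Irgm2 have probe sets shared with another gene and Ifi44 has none in the annotation used here, so these 6 carry no value below. The receptor genes Ifnar1 and Ifnar2 are in the list as the entry point of the pathway.

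The series concerns Notch2 signalling through RBPJ in splenic CD11b+ DCs, and each of its 3 groups has 1 array, of RNA from the pooled spleens of 2 to 3 mice. Control Esam(hi) cells were CD11c(high) CD11b+ Esam(hi) GFP(lo), and control Esam(lo) cells were CD11c(high) CD11b+ Esam(lo) GFP(hi). Both came from Cx3cr1-GFP RBPJflox/flox mice without Cre. The remaining group was Esam(lo) GFP(hi) cells of RBPJflox/flox CD11c-Cre Cx3cr1-GFP littermates. All mice thus carried the floxed Rbpj alleles and a GFP reporter in Cx3cr1. CD11c-Cre acts in all cells that express CD11c and is not confined to a subset, and no age or infection is given in the labels.

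There are no replicates, so each difference is between arrays, with no error and no test, and animals, sort and array cannot be told apart from the group. In bulk RNA, fewer cells of a type and less RNA per cell also cannot be told apart. On the arrays of Esam(hi) controls, Esam(lo) controls and Cre-carrying mice, in that order, Rbpj itself read 9.85, 9.85 and 10.04, so the last array is called "labelled RBPJ-deficient". Rbpj has 2 probe sets, and only the one with the highest mean is given. The probes' place relative to the deleted exons is not known here. Esam read 7.79, 6.57 and 6.12, and only the first of these was above background. Values are log2 expression values and are always given in that order of arrays. A gene was above background where it exceeded 95% of 1194 olfactory or vomeronasal receptor genes, which was at 7.17, 6.76 and 6.87. Of the 39 measured genes, 30 were above background on all 3 arrays and 6 on the Esam(lo) arrays only (Ifit1, Mx1, Eif2ak2, Gbp3, Cmpk2 and Samd9l). The other 3 (Ifit2, Mx2 and Iigp1) were not above background on any array.

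What the genes share in sequence was read from RefSeq promoter windows of assembly GRCm38.p6, each 300 bases long, from 250 before to 50 after a transcription start. Of the 45 genes, 33 had a window. The core of the interferon-stimulated response element was searched on both strands as GAAA, any 2 bases and GAAA again. It was found in 20 of the 33 genes (60.6%) and in 3.99% of all 27025 genes with a window. The gamma-activated site, searched as TTCNNNGAA, which reads the same on both strands, was in 11 of the 33 (33.3%) and in 9.55% of all genes. The binding core of RBPJ, TGGGAA or TTCCCA, was in 12 of the 33 (36.4%) and in 28.31% of all genes. A match is a run of letters and not a measured binding site.

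Sequence of 8 promoters is printed because these genes recur in the results below. Irgm1, Ifi203, Oas1a and Ifit3 hold response element cores before the start, Ifitm3 and Ifih1 hold them just after it, and Samd9l and Ifnar2 hold none in the window. The stretches are chr11:48871421-48871670 (minus strand), chr1:173942493-173942742 (minus), chr5:120907526-120907775 (minus), chr19:34583279-34583528 (plus), chr6:3399572-3399821 (minus) and chr16:91372533-91372782 (plus) for Irgm1, Ifi203, Oas1a, Ifit3, Samd9l and Ifnar2. Each of these is the 250 bases that end just before the start. For Ifitm3 the first 30 bases after the start are shown (chr7:141010715-141010744, minus) and for Ifih1 the last 30 of the window (chr2:62646206-62646235, minus). Capitals mark the response element core, and overlapping cores in Irgm1 and Oas1a form unbroken capitals.
Irgm1: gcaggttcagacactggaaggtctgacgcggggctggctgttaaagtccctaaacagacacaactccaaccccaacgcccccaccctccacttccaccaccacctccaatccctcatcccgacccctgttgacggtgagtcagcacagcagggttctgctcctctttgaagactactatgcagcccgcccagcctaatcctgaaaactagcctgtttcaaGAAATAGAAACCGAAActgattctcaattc
Ifi203: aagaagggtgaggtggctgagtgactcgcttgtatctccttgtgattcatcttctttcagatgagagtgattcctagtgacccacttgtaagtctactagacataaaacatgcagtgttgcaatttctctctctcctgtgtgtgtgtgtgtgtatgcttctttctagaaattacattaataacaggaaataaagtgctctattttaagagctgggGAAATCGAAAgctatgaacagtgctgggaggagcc
Oas1a: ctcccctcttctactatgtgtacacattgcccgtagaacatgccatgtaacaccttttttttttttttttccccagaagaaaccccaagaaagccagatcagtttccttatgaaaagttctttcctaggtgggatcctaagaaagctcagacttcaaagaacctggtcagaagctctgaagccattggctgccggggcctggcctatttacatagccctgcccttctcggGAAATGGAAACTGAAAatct
Ifit3: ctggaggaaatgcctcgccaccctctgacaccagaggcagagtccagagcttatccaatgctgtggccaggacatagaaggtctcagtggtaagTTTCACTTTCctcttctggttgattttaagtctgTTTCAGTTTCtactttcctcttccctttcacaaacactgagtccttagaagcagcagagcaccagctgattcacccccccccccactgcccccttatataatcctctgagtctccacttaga
Samd9l: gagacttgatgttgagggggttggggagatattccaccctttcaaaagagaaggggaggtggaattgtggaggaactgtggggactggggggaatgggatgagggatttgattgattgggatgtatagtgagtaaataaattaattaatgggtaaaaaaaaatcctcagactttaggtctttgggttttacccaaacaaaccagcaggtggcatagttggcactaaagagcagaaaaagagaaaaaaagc
Ifnar2: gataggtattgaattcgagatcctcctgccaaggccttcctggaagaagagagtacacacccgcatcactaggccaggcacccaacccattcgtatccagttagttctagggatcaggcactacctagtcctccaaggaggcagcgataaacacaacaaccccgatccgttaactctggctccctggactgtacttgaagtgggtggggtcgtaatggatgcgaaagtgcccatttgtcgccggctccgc
Ifitm3: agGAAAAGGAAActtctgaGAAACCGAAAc
Ifih1: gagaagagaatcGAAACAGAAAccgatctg

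**Figure D1:**
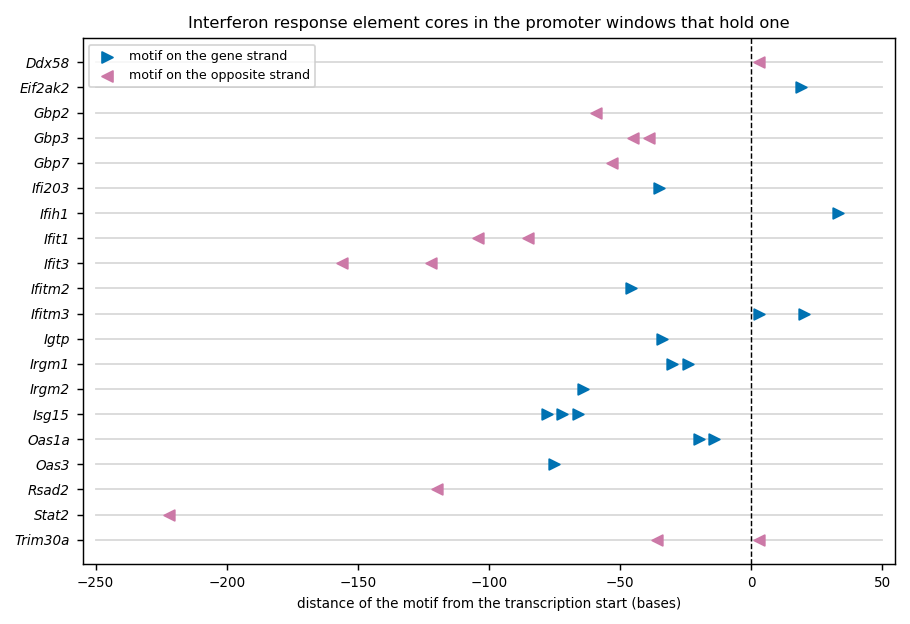
Position of each response element core (GAAA, any 2 bases, GAAA, on either strand) in the promoter windows of the 20 genes that hold one. The horizontal axis is the distance in bases of the motif's first base from the transcription start, triangles give the strand, and most cores begin before the start, the farthest at -222.

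In control cells, most interferon-stimulated genes had somewhat lower values in the Esam(hi) than in the Esam(lo) sample. Of the 36 genes above background on at least 1 of these arrays, 33 were lower, 2 were higher (Oas2 and Oasl1) and 1 was exactly equal (Gbp7). The median difference, Esam(hi) minus Esam(lo), was -0.53 over these genes and -0.28 over all 9668 genes above background, of which 67.7% were lower. Thus 91.7% of the interferon-stimulated genes lay below 0 on a pair of arrays where that was already the usual direction. By a 2-fold rule, 6 of the 36 were lower, namely Ifitm3, Samd9l, Ifi203, Irgm1, Ifnar2 and Ifnar1 (16.7%, against 11.0% of all genes), and none was higher (0.776% of all genes were).

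The difference between the control arrays depended on level: the median was 0.15 for genes with a mean log2 level between 6 and 7, and -0.51 for those between 9 and 10. Each gene was therefore set beside the 500 genes nearest to it in mean level, and a level-adjusted difference is the gene's difference minus the median of those 500. After this adjustment 25 of the 36 interferon-stimulated genes lay below 0 (69.4%, against 50.1% of all genes) and the median was -0.21 (0.00 over all genes). By mean level, that median was -0.48 for the 13 genes between 7 and 8 and 0.01 for the 10 between 8 and 9. It was -0.02 for the 7 between 9 and 10 and -0.52 for the 4 between 10 and 11. The 2 above 11 had -0.91. The 500 genes were drawn from all genes measured, also those not above background. Only Ifitm3 and Samd9l stayed 2-fold lower (5.56%, against 4.72% of all genes), and again none was 2-fold higher (2.03% of all genes were). The genes lowest after adjustment belonged to several roles, and those above 0 included 3 of the 5 OAS genes. With a lowess curve in place of the 500 genes the median was -0.25, and with a filter at each array's 75th percentile in place of background it was -0.044. Centring each array on its median lowers every control difference by 0.12. Single genes were also followed under 5 alternatives: centring, quantile normalization, the lowess curve, level adjustment, and the mean of a gene's probe sets.

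**Figure D2:**
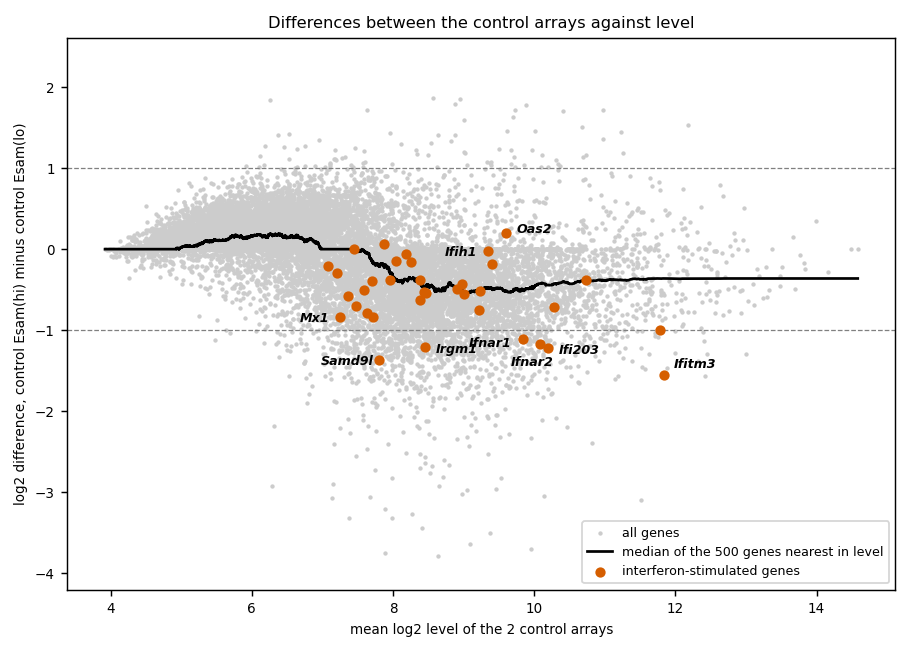
Log2 value on the control Esam(hi) array minus that of control Esam(lo), against the mean log2 level of both, for all genes (grey) and the 36 interferon-stimulated genes above background (orange). The black line is the median of the 500 genes nearest in level and the dashed lines mark 2-fold. Ifitm3 at -1.56 lies farthest below 0 of the orange points and Oas2 at 0.20 farthest above.

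Both receptor chains were among the genes with lower values. Ifnar1, the receptor chain that binds TYK2, read 9.28, 10.40 and 10.40, and Ifnar2, the chain that binds JAK1, read 9.50, 10.67 and 10.73. The Esam(hi) array was thus the low one for both chains, 2.17-fold below the control Esam(lo) array for Ifnar1 and 2.25-fold for Ifnar2. Of the 500 genes of like level, 13.2% lay lower than Ifnar1 and 8.8% lower than Ifnar2, and their level-adjusted differences were -0.61 and -0.75, short of 2-fold. Stat2, the STAT protein particular to type I and III interferon signalling, read 9.31, 9.49 and 9.49, a small difference that turned positive (0.30) after level adjustment. Usp18, which removes ISG15 from proteins and dampens signalling at IFNAR2, read 8.97, 9.50 and 9.74. Its control difference of -0.52 was that of genes of its level (level-adjusted -0.02).

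Sensors of nucleic acid differed among themselves. Ifi203, a PYHIN protein of the family that binds DNA, read 9.58, 10.80 and 11.22, and was 2.33-fold lower on the Esam(hi) than on the control Esam(lo) array (level-adjusted -0.78). Eif2ak2, the kinase PKR that halts translation on double-stranded RNA, read 7.13 (not above background), 7.83 and 7.90, at least 1.58-fold lower (level-adjusted -0.70). These 2 genes lay well below the median of their level, and the genes of the RIG-I-like receptors did not. Ifih1, which encodes MDA5, read 9.33, 9.35 and 9.35, and with 85.6% of genes of like level below it, its level-adjusted difference was 0.46. Ddx58, which encodes RIG-I, read 8.73, 9.29 and 9.41 (level-adjusted -0.03), and Dhx58, which encodes their regulator LGP2, read 8.19, 8.58 and 8.58 (0.03). Zbp1, a sensor of Z-form nucleic acid that can start necroptosis, read 8.17, 8.70 and 8.70 (level-adjusted -0.06).

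The OAS genes make 2'-5' linked oligoadenylates that activate RNase L, and the 5 of them had a median control difference of -0.14, nearer to 0 than that of the list. Oas2 read 9.70, 9.50 and 9.50, and was the one gene of the list higher on the Esam(hi) array under all 5 alternatives, although by only 1.15-fold. Of the genes of like level, 92.6% lay below Oas2 (level-adjusted 0.71). Oas1a read 7.97, 8.11 and 8.11 (level-adjusted 0.24). Oasl1, which lacks the enzyme activity and is known to limit translation of Irf7, read 7.90, 7.84 and 7.84, and its control difference of 0.06 changed sign when the arrays were centred. Oas3 read 7.34, 7.85 and 7.84, and Oasl2 read 8.84, 9.59 and 9.59, so these 2 were lower on the Esam(hi) array also after level adjustment (-0.48 and -0.24).

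Among the IFIT proteins, which bind viral RNA lacking host-type caps, Ifit3 read 8.15, 8.22 and 8.24 and Ifit1 read 7.06 (not above background), 7.36 and 7.45. Ifit3 differed by -0.07 between the control arrays and Ifit1 by at least 1.14-fold, with Esam(hi) the lower. Herc6, the ligase that attaches ISG15 in mice, read 8.18, 8.34 and 8.54. Level-adjusted, Ifit3 and Herc6 turned positive (0.31 and 0.21). Mx1, a dynamin-like GTPase that blocks influenza virus, read 6.83 (not above background), 7.66 and 7.99. Its Esam(hi) value was at least 1.41-fold below control Esam(lo). The level-adjusted difference of -0.83 used the deposited Esam(hi) value, which was not above background, and is not a bound.

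Rsad2, Cmpk2 and Isg20 act on nucleotides or RNA. Rsad2 encodes viperin, which makes a chain-terminating nucleotide, and read 7.23, 8.02 and 7.99 (1.73-fold lower on the Esam(hi) array, level-adjusted -0.75). Cmpk2, its neighbour in the genome, supplies the substrate and read 6.97 (not above background), 7.18 and 7.18. Isg20, a 3' exonuclease, read 8.76, 9.19 and 9.13, with a level-adjusted difference of 0.06. Rsad2 was thus low on the Esam(hi) array beside genes of its level, which Isg20 was not.

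Membrane proteins of the IFITM family hinder the entry of enveloped viruses, and 1 of them, Ifitm3, gave the widest control difference of the list. Ifitm3 read 11.06, 12.62 and 12.60, with Esam(hi) 2.95-fold below control Esam(lo), and 1.0% of genes of like level lay lower still (level-adjusted -1.20). It stayed 2-fold lower under each of the 5 alternatives. Its neighbour Ifitm2 has 3 probe sets, at 11.29, 12.29 and 12.27, at 11.11, 12.01 and 11.98, and at 10.97, 11.94 and 11.95. They differed by -0.99, -0.90 and -0.97, just under 2-fold. Ifitm1, which is not in the list, went the other way, at 10.14, 9.81 and 9.61. Its control difference was 0.33 (level-adjusted 0.81), so the IFITM genes did not all differ alike. The IFITM genes are close copies, so their probes may share signal and the values are not independent.

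Samd9l, which restrains cell growth and poxvirus infection, read 7.12 (not above background), 8.49 and 8.80, with Esam(hi) at least 2.50-fold below control Esam(lo). It too kept a 2-fold difference under all 5 alternatives, with 3.2% of genes of like level below it (level-adjusted -1.15). Ifi27l2a, a small mitochondrial protein, read 7.30, 8.14 and 8.14 (1.79-fold lower, level-adjusted -0.66). Trim30a, a TRIM protein that restrains Toll-like receptor signalling, read 9.93, 10.65 and 10.68 (level-adjusted -0.29). These 3 were on the low side of their level.

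Nearer to it were the remaining induced genes. Xaf1, a proapoptotic protein, read 7.51, 7.90 and 8.0 (level-adjusted -0.23). Rtp4, a receptor transporter, read 7.77, 8.15 and 8.47 (-0.08), and Ifi35, a partner of NMI, read 8.20, 8.74 and 8.74 (-0.08). The ADP-ribosyltransferase relatives Parp9 and Parp14 read 8.07, 8.70 and 8.75, and 8.66, 9.15 and 9.15, with level-adjusted differences of -0.21 and -0.01. Tap1, a subunit of the transporter that loads peptide onto MHC class I, read 10.55, 10.93 and 10.93 and sat on the median of its level (0.02).

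GTPases that answer mainly to interferon gamma were measured incompletely, since Gbp2, Igtp and Irgm2 share probe sets. Irgm1, which regulates the other immunity-related GTPases and autophagy, read 7.85, 9.06 and 9.06, 2.31-fold lower on the Esam(hi) array (level-adjusted -0.74). The guanylate binding protein gene Gbp3 read 7.07 (not above background), 7.65 and 7.65, at least 1.40-fold lower, while Gbp7 read 7.45 on all 3 arrays. Exactly equal values were frequent, with 13.6% of all genes tied between the control arrays, and whether tied genes had equal transcript levels was not tested. Iigp1 at 4.91, Ifit2 at 6.75 and Mx2 at 5.10, 5.46 and 5.46 were not above background on any array.

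**Figure D3:**
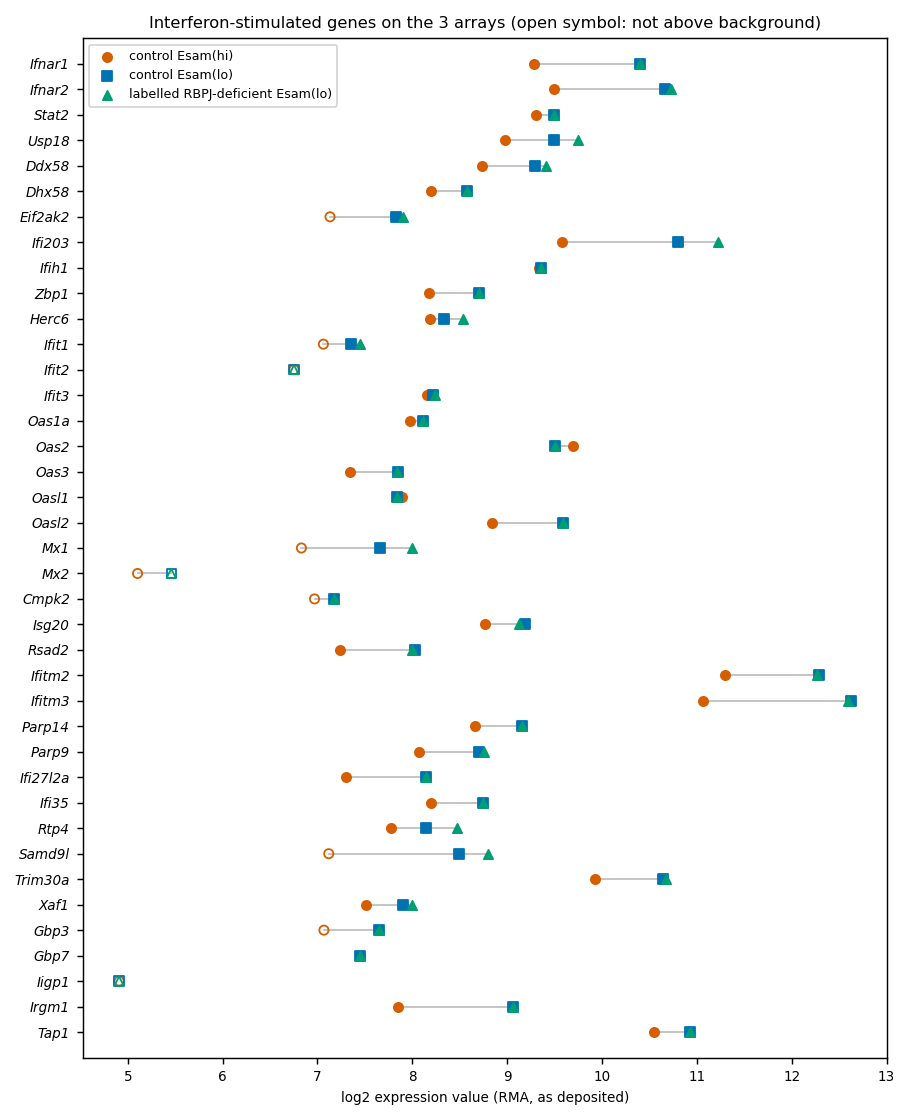
Log2 expression values of the 39 measured interferon-stimulated genes on the 3 arrays, grouped by role from the receptor chains at the top to Tap1 at the bottom. Open symbols are not above background, and symbols are to be compared within a row only. The control Esam(lo) and labelled RBPJ-deficient symbols overlap in most rows, and the Esam(hi) symbol lies to their left in most.

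Genes with and without the response element core had overlapping differences. Of the 36 genes above background, 27 had a promoter window, 16 with a response element core and 11 without. By the 2-fold rule 3 of the 16 were lower on the Esam(hi) array (Ifitm3, Ifi203 and Irgm1) and 3 of the 11 (Samd9l, Ifnar1 and Ifnar2), against 11.0% of all genes. After level adjustment only Ifitm3 of the former and Samd9l of the latter stayed 2-fold lower (4.72% of all genes were). The median level-adjusted differences were -0.39 and -0.21, with ranges of -1.20 to 0.46 and -1.15 to 0.25, so the groups overlapped throughout. Irgm1 and Oas1a both have a pair of overlapping cores close before the start, as printed above, and differed by -1.21 and -0.14 between the control arrays.

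Markers of several other cell types moved between the control arrays together with the genes that were lower. Of the 12 monocyte markers listed, 10 were measured, all 10 were lower on the Esam(hi) array, and 9 were at least 2-fold lower (8 after level adjustment). Over all genes above background, 67.7% were lower and 11.0% 2-fold lower (4.72% after level adjustment). Of the 9, Cx3cr1 (8.32, 9.58 and 9.58) carries the GFP reporter by which the cells were sorted, so its direction was set by the sort. The summed level of the 10 markers was 13.71, 14.91 and 14.87 on the log2 scale, and Ccr2 read 6.32 (not above background), 9.64 and 9.84. Macrophage markers summed to 11.93, 12.90 and 12.81, and all 8 above background were lower, 3 of them 2-fold (2 after level adjustment). Vcam1 and Adgre1 among the 8 differed by only -0.01 and -0.20. Mertk, Marco and Siglec1 were not above background on any array. Neutrophil markers summed to 13.04, 14.16 and 14.27. Of those 8, 6 were lower in Esam(hi), 5 of them 2-fold (2 after level adjustment). The granule genes Mpo and Elane were higher, by 0.96 and 0.35 on the log2 scale, and Mpo passed 2-fold after level adjustment (1.40).

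Other lymphoid and DC lists were mixed, that of the sorted cell type among them. CD11b+ DC markers summed to 12.87, 13.66 and 13.68. Of these 7 genes 5 were lower in Esam(hi), Cd209a 5.23-fold and Itgam 2.11-fold, and only Cd209a stayed 2-fold lower after level adjustment. The other 2 were Esam, used in the sort and at least 2.04-fold higher, and Irf4, at 10.05 on all 3 arrays. Plasmacytoid DC markers summed to 10.41, 11.11 and 11.30. Among these 8 genes, Tcf4 (8.34, 9.55 and 9.62) and Spib (8.09, 9.28 and 9.80) were 2-fold lower in Esam(hi), Bst2 and Ccr9 were lower by less, and Siglech, Ly6d, Klk1b1 and Pacsin1 were not above background on any array. CD8+ DC markers summed to 10.97, 12.33 and 12.25. Clec9a, Naaa and Irf8 were at least 4.10-fold, 5.03-fold and 3.27-fold lower, Batf3 was slightly higher, and Xcr1 and Cd8a were not above background. NK cell markers summed to 10.03, 11.10 and 11.08. Klrk1 was at least 2.97-fold and Klrd1 2.19-fold lower, and the other 5, Ncr1 among them, were not above background. Of 5 B cell markers, Cd79b read 8.20, 9.12 and 9.29, Blk was above background on the Esam(hi) array alone (7.59), and Cd79a, Ms4a1 and Pax5 were on none. Of 4 T cell markers, Cd3e read 7.65, 7.64 and 7.65, and Cd3g, Cd3d and Cd8b1 were not above background. Classical DC markers were all above background on every array, with sums of 15.38, 15.45 and 15.46. The part of cells of any of these types in the interferon-stimulated values was not tested.

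Between the labelled RBPJ-deficient array and the control Esam(lo) array, which hold cells of the same sorted phenotype, no interferon-stimulated gene differed 2-fold in either direction. Over all 9563 genes above background, 0.0732% were 2-fold higher and 0.188% lower, so a count of 0 among 36 genes is at the background. Of the 36 genes 15 were higher on the labelled array, 6 lower and 15 exactly equal, which is 41.7%, 16.7% and 41.7%, against 28.8%, 29.9% and 41.3% of all genes. The median was 0.00 for both. The quartiles were 0.00 and 0.08 for the 36 genes, and -0.02 and 0.02 over all genes. Of the 36, 28 differed by less than 0.1, a size at which all genes were not counted.

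Among these 36 genes, the differences of 0.1 or more were all on the higher side. How differences of this size divide over all genes was not counted. Ifi203 was 0.42 higher on the labelled array, Mx1 0.33, Rtp4 0.32, Samd9l 0.31, Usp18 0.25, Herc6 0.20, Ddx58 0.12 and Xaf1 0.10. The other 7 of the 15 were under 0.1. The 6 lower genes were all within 0.1 of 0, the farthest being Isg20 at -0.06. Differences of 0.3 or more, a size chosen after the values were seen, were found for 4 of 36 genes on the higher side (11.1%, against 2.44% of all genes) and for none on the lower side (1.96% of all genes). The 8 genes named here kept their sign under all 5 alternatives, but each rests on 1 array a side. Ifnar1 was exactly equal on these arrays and Ifnar2 differed by 0.06, while Oas2, Oas1a and Irgm1 were exactly equal.

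**Figure D4:**
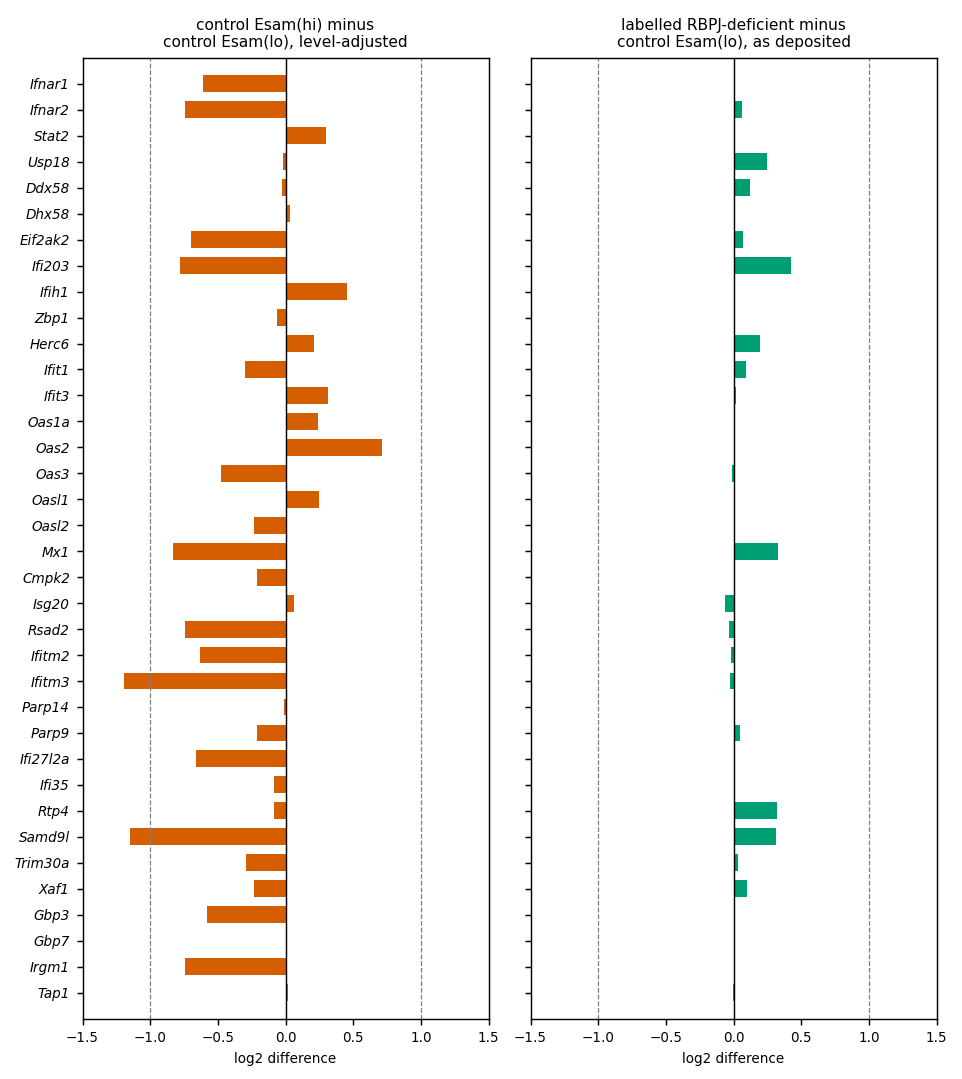
Log2 differences of the 36 interferon-stimulated genes above background, grouped by role. The left panel gives Esam(hi) minus Esam(lo) of control mice after level adjustment, from -1.20 for Ifitm3 to 0.71 for Oas2, and the right panel the labelled RBPJ-deficient minus the control Esam(lo) array as deposited, where no bar reaches the dashed 2-fold lines.

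Set against the control Esam(hi) array, the labelled RBPJ-deficient array was higher for 33 of the 36 genes, lower for 2 and equal for 1. The median was 0.56, against 0.30 over all 9394 genes above background, of which 68.1% were higher, 18.6% lower and 13.3% equal. By the 2-fold rule 7 genes were higher (19.4%, against 12.8% of all genes) and none was lower (1.17%). They were Ifi203 (3.13-fold), Samd9l (at least 3.11-fold), Ifitm3 (2.90-fold), Ifnar2 (2.35-fold), Irgm1 (2.31-fold), Ifnar1 (2.17-fold) and Mx1. Mx1 differed by 1.16 on the deposited values, but since its Esam(hi) value was not above background only a fold of at least 1.77 can be stated. Counted on such bounds, 6 genes were 2-fold higher (16.7%, against 11.3% of all genes). This comparison shares the Esam(hi) array with the control comparison and the labelled array with the one before, so it is no independent check of either. After level adjustment 4 genes stayed 2-fold higher on the deposited values, Samd9l (1.40), Ifi203 (1.22), Ifitm3 (1.16) and Mx1 (1.15), which is 11.1% against 5.63% of all genes, and none was 2-fold lower (2.49%). On bounds Mx1 drops out, which leaves 3 (8.33%, against 3.97%). The median was then 0.27, and 11 genes (30.6%) lay below the median of their level, against 47.7% of all genes.

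Other genes of the interferon pathway were read from a list of 122 symbols, of which 107 genes outside the 45 were measured. In the control comparison 90 were above background, 2 of them higher in Esam(hi) by the 2-fold rule (2.22%, against 0.776% of all genes) and 19 lower (21.1%, against 11.0%). On bounds the lower ones were 18 (20.0%, against 9.86%). The median over the 90 was -0.46, or -0.10 after level adjustment. No gene of the 90 was 2-fold apart between the labelled and control Esam(lo) arrays. On those arrays 20 of the 90 were higher on the labelled one, 36 lower and 34 exactly equal. Over all genes 28.8% were higher, 29.9% lower and 41.3% equal. Among the 90 were 53 further interferon-stimulated genes, of which 15 were higher, 16 lower and 22 equal. The excess of higher values among the 36 listed genes was thus not seen in these other genes.

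The few interferon genes above background lay on the other side. Of 15 type I and III interferon genes measured, 3 were above background on both control arrays, and these 3 had higher values in Esam(hi). The fourth gene above background on a control array, Ifna9, read 7.0 (not above background), 6.86 and 6.86 (not above background). Ifnz, an interferon zeta (limitin) gene, read 9.77, 7.98 and 7.89, a 3.46-fold difference between the control arrays. Ifnl2, an interferon lambda gene, read 9.13, 8.11 and 8.0 (2.02-fold), and Ifna5 read 8.59, 7.90 and 7.66. These genes have close copies, so their probes may also read related genes. Ifnb1 at 4.89, 4.67 and 4.78 and Ifng at 6.26, 6.13 and 6.13 were not above background on any array.

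Among receptors and signalling genes, Il10rb, the chain shared by the interferon lambda and interleukin 10 receptors, read 8.71, 9.99 and 9.88, 2.43-fold lower on the Esam(hi) than on the control Esam(lo) array. The interferon gamma receptor genes Ifngr1 (11.73, 12.28 and 12.23) and Ifngr2 (11.06, 11.81 and 11.80) differed by less, and Ifnlr1 was not above background. Of the kinases, Jak1 read 9.95, 10.82 and 10.76, Tyk2 9.34, 9.45 and 9.45, and Jak2 10.85, 10.86 and 10.86. Tyk2 and Jak2 lay above the median of their level (0.37 and 0.38) and Jak1 below it (-0.45).

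The transcription factor genes differed in the same graded way. Irf7, the factor that amplifies interferon production, read 8.65, 10.02 and 9.78, with Esam(hi) 2.58-fold below control Esam(lo), and Irf8, which DCs and monocytes need to develop, read 8.58, 10.29 and 10.07, 3.27-fold lower. With level adjustment Irf8 stayed 2-fold lower (-1.21) and Irf7 did not (-0.89). Irf9, a partner of STAT2, read 9.08, 9.66 and 9.66, which was the difference of its level (level-adjusted -0.10). Irf5 read 9.20, 10.12 and 10.12, Irf2 10.10, 10.77 and 10.73, Irf1 9.62, 10.06 and 9.92, and Irf3 8.10, 8.59 and 8.45. Stat3 read 10.85, 11.12 and 11.07. None of these 5 was 2-fold apart in any comparison.

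Upstream, Myd88, the adaptor of most Toll-like receptors, read 9.42, 10.94 and 10.59 (2.87-fold lower on the Esam(hi) than on the control Esam(lo) array). Sting1, the adaptor for cytosolic DNA sensing, read 9.08, 10.49 and 10.72 (2.66-fold lower). Mavs, the adaptor of RIG-I and MDA5, read 8.49 on all 3 arrays. Trim25, which activates RIG-I, read 9.28, 10.27 and 10.36 and passed the 2-fold rule on the labelled against the Esam(hi) array only.

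Of 53 further interferon-stimulated genes above background, 14 were 2-fold lower on the Esam(hi) than on the control Esam(lo) array (26.4%, against 11.0% of all genes). None was 2-fold higher (0.776% of all genes were). On bounds 13 were 2-fold lower (24.5%, against 9.86%), since Slfn8 is not above background on the Esam(hi) array. Regardless of size, 40 of the 53 were lower, 3 higher (Nlrc5, Ifitm1 and Uba7) and 10 exactly equal. Over all genes 67.7% were lower, 18.7% higher and 13.6% equal. Of the CXCR3 ligand genes, Cxcl9 read 7.29, 10.11 and 10.36 (7.05-fold) and Cxcl10 8.11, 10.14 and 10.19 (4.07-fold), while Cxcl11 was not above background on any array (5.86, 5.78 and 5.78). Ifi205, a relative of Ifi203, read 6.39 (not above background), 9.11 and 9.53 (at least 3.84-fold), and Ifi209 of the same family read 8.41, 9.44 and 9.58. Aim2, the inflammasome sensor of the family, read 10.29, 10.35 and 10.50, with a level-adjusted control difference of 0.36, so the PYHIN genes did not all differ alike. Also in the list were Ms4a4c at 9.22, 10.77 and 11.03 and Ifitm6 at 9.67, 11.05 and 10.96. Fcgr1 read 6.97 on all 3 arrays, which was not above background on the Esam(hi) array.

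Schlafen genes, which act on tRNA and T cell growth, were represented by Slfn5 at 8.02, 9.59 and 9.56, Slfn1 at 7.55, 8.56 and 8.18, and Slfn8 at 6.36 (not above background, so at least 1.40-fold lower), 7.66 and 7.74. Slfn2 read 8.97, 9.52 and 9.52, which was near the median of its level (level-adjusted -0.06). Lgals3bp, a secreted glycoprotein, read 8.40, 10.25 and 10.25 (3.60-fold lower in Esam(hi)), and Casp4, the sensor of cytosolic lipopolysaccharide, 7.33, 8.66 and 8.63 (2.52-fold). Dtx3l, the partner of PARP9, read 8.0, 9.12 and 8.97, Ly6e 11.88, 12.91 and 12.93, and Tor3a 7.76, 8.77 and 8.81. Parp12 at 8.32, 9.31 and 9.32 passed 2-fold on the labelled against the Esam(hi) array only. After level adjustment 8 of these 53 genes stayed 2-fold lower on the Esam(hi) than on the control Esam(lo) array (15.1%, against 4.72%), or 7 on bounds (13.2%, against 3.29%).

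**Figure D5:**
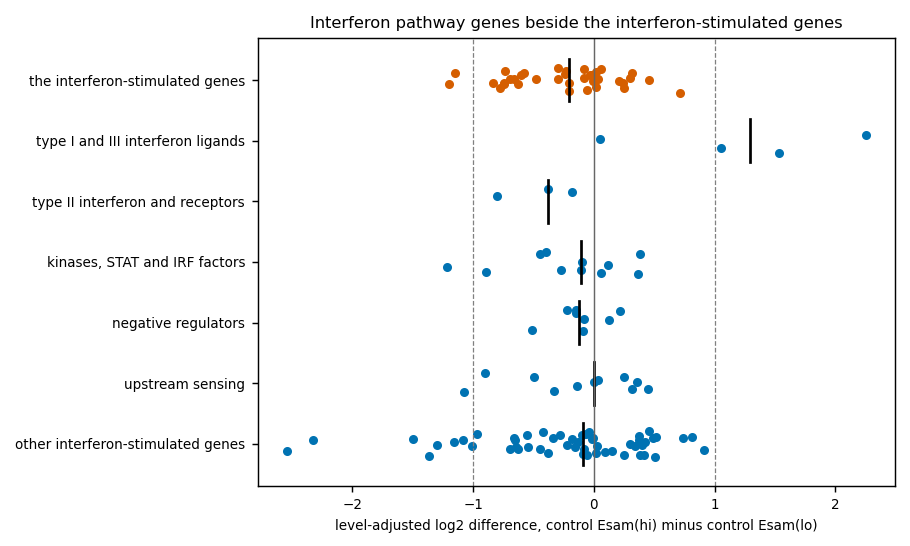
Level-adjusted log2 differences between the control arrays (Esam(hi) minus Esam(lo)) of the interferon-stimulated genes (orange) and of other interferon pathway genes above background (blue), by list. Black bars are medians, -0.21 for the 36 orange genes, 1.29 for the ligand genes (only 4) and -0.09 for the 53 further interferon-stimulated genes. Dashed lines mark 2-fold.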

How the data were processed

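Each group has 1 Affymetrix Mouse Gene 1.0 ST array. The deposited values are log2 values made by the authors with RMA in Affymetrix Expression Console, per the submitters' processing notes. Which arrays were normalized together and the tools' versions: not given in the sources used here. The columns' quartiles differ, so scale differences between arrays remain.

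Of 35556 probe sets, the platform annotation names 21789 with 1 gene, 1621 with several and 12146 with none. A gene with several probe sets (999 genes) took the one with the highest mean. Differences are between arrays. The 2-fold rule counts deposited differences of at least 1 on the log2 scale with the brighter array above background. Where the dimmer array is not, the printed fold is a bound ("at least") against that array's background, and counts were repeated on these bounds. Level adjustment subtracts the median difference of the 500 genes nearest in mean level, drawn from all measured genes. It uses the deposited values also where an array is not above background, unless counts on bounds are named. It was tested on simulated data. Single genes were recomputed under 5 alternatives, and counts also at 1.5-fold and 3-fold. With 1 array per group there is no test, p-value or error. The small number of arrays limits precision. Promoter windows came from a RefSeq table of GRCm38.p6.

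The genes and lists were chosen with earlier results of these data known. All 45 genes are accounted for. Of the other pathway list, genes past 2-fold in any comparison are named, with the receptors, kinases, STAT and IRF genes. Part of that list is not reported here. Other genes of that list were named after their values were seen. Software was Python 3.11.15, pandas 2.3.3 and statsmodels 0.14.6.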

Additional observations from a re-analysis of the deposited data

How the results depend on the processing

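No paired analysis was possible because each group has 1 array, and no array could be left out. The medians over the interferon-stimulated genes kept their sign in the control and the labelled-against-Esam(hi) comparisons under every alternative tried. Against the deposited median of -0.53 for Esam(hi) minus Esam(lo) of control mice, the value was -0.64 with each array centred on its median, -0.30 with quantile normalization, -0.25 with a lowess trend removed and -0.21 with the like-level median subtracted. For the labelled array minus the Esam(hi) array, deposited at 0.56, the same 4 settings gave 0.69, 0.39, 0.31 and 0.27, and the stricter filter gave 0.68. That filter moved the level-adjusted medians to -0.044 and 0.15.

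The 6 genes 2-fold lower on the control Esam(hi) array (16.7%, against 11.0% of all genes) became 7 with centring (19.4%, against 15.3%), 3 with quantile normalization (8.33%, against 6.73%), 2 with the lowess trend removed (5.56%, against 5.04%) and 2 with the like-level median subtracted (5.56%, against 4.72%). They were 14 at 1.5-fold (38.9%, against 30.5%) and 0 at 3-fold (2.03% of all genes). The 7 genes 2-fold higher on the labelled than on the Esam(hi) array became 8 with centring (22.2%, against 17.5%) and 4, 4 and 4 under the other 3 settings (11.1%, against 7.65%, 6.04% and 5.63%). They were 17 at 1.5-fold (47.2%, against 32.1%) and 2 at 3-fold (5.56%, against 2.74%). The causes were not tested. Counting on bounds against background was chosen after seeing the data. No setting gave a 2-fold call between the Esam(lo) arrays. Of the 36 control differences, 10 changed sign over the 5 alternatives run per gene, 25 were never above 0, and Oas2 was never below 0. The genes whose sign changed were Ifit3, Isg20, Oas1a, Oasl1, Stat2, Ifih1, Dhx58, Gbp7, Tap1 and Herc6. Genes near background, such as Mx1 and Samd9l on the Esam(hi) array, have only a bound there.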
